A study of Mus musculus with 24 samples.

Results

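Luminal epithelial and progenitor genes were followed through mammary tumor development as a set of 9 genes: the simple keratins Krt7, Krt8, Krt18 and Krt19, the surface genes Epcam, Muc1, Cd24a and Prom1, and the aldehyde dehydrogenase Aldh1a3. The members are the rows of the count table whose Ensembl identifiers carry these symbols in GENCODE M1, 9 of 37991 genes in the table. All 9 passed the filter on low counts, which left 14918 genes to test. RNA-seq was performed on mammary glands or tumors from 24 female mice, 3 PyMT and 3 FVB at each of weeks 6, 8, 10 and 12. PyMT mice were F1 females heterozygous for MMTV-PyMT, a transgene whose mouse mammary tumor virus promoter drives the middle T antigen of polyoma virus, mainly in mammary epithelium. FVB mice were age-matched females of the same strain without the transgene, and both genotypes share the FVB background. By the study's staging, PyMT glands are hyperplastic at 6 weeks, carry adenoma/MIN by 8, and hold early and then late carcinoma by 10 and 12. The transgene itself was not analysed here.

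Luminal cells line the milk ducts and alveoli of the mammary gland, and basal or myoepithelial cells surround them. Keratins build their intermediate filaments from pairs of 1 type I and 1 type II chain: Krt8 and Krt7 are type II chains, and Krt18 and Krt19 are type I chains. Epcam is an epithelial adhesion molecule, Cd24a encodes a small GPI-anchored surface glycoprotein used to sort mammary epithelium, Muc1 is the mucin of the apical surface, Prom1 encodes CD133 and marks a share of luminal cells in the mouse gland, and Aldh1a3 makes retinoic acid from retinaldehyde and is one of the enzymes behind the ALDH activity used to mark luminal progenitors.

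The type II and type I keratin genes of the set lie close together in part. On mm9, Krt8 spans chr15:101827142-101834773 on the minus strand and Krt18 spans chr15:101858647-101862457 on the plus strand, 23873 bases apart, and Krt7 (chr15:101241474-101260744) lies 566397 bases before Krt8. Krt19 lies alone on chromosome 11 (chr11:100002124-100009979). The surface genes and Aldh1a3 are on 5 other chromosomes. RefSeq promoter windows (250 bases before to 50 bases after the start of the gene, GRCm38.p6, a later build than the mm9 of the counts) were found for 6 of the 9 genes, and Krt19, Cd24a and Aldh1a3 had no entry. Windows are shown for the neighbours Krt8 and Krt18, for Epcam, which differed most between the genotypes, and for Krt7, which was not called different. Capitals mark the letters CACCTG on either strand, the E-box through which Snail and Zeb repressors are known to act on epithelial genes. The windows lie at chr15:102004293-102004592, minus strand (Krt8), chr15:102027966-102028265, plus strand (Krt18), chr17:87635729-87636028, plus strand (Epcam) and chr15:101412153-101412452, plus strand (Krt7).
Krt8: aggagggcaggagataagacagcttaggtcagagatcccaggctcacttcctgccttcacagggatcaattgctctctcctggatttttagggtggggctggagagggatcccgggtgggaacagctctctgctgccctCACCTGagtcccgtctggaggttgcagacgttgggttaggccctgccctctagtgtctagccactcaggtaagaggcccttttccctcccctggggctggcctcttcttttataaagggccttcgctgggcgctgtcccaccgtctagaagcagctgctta
Krt18: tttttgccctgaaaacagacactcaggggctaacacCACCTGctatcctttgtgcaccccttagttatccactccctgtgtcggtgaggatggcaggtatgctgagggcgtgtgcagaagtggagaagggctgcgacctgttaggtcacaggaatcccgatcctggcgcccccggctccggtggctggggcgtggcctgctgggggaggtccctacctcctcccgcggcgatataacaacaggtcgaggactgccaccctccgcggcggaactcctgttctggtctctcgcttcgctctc
Epcam: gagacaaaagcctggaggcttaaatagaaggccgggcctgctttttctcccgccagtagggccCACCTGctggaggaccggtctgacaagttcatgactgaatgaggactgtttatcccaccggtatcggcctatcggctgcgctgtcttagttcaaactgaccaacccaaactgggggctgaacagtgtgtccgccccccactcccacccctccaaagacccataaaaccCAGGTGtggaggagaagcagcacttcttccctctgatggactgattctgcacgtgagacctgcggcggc
Krt7: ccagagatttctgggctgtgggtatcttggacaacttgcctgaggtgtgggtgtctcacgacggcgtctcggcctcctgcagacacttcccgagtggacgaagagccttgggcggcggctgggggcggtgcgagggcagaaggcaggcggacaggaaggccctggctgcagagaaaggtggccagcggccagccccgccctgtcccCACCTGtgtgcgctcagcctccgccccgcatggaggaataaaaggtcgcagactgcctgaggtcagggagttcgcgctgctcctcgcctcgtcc
All 6 genes with an entry held CACCTG in their first window, against 20.2% of 32851 promoter windows in RefSeq. Prom1 had a second window, which brought the set to 7 windows and did not hold CACCTG. It began at position -111 from the start in Krt8, -214 in Krt18, -44 in Krt7 and -187 and, on the other strand, -19 in Epcam. In the same first windows 5 other motifs were counted on both strands. The GC box GGGCGG was in 4 of the 6 genes (35.7% of all windows), CCAAT in 2 (37.4%) and TATAAA in 2 (13.6%). The ETS core AGGAAG was in 2 (35.4%) and the AP-1 site TGANTCA in 1 (7.81%). No CACCTG match overlapped a match to another motif. The E-box was in the promoter of Krt7 as well as in those of Krt8, Krt18 and Epcam, so its presence did not separate the genes called between the genotypes from 1 that was not called. A match gives letters only and was not tested as a site.

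Total counts ran from 6969375 to 13516601 per sample. Over all weeks, 3840 of 14918 genes (25.7%) were called, with an adjusted p under 0.05 in edgeR's quasi-likelihood test and a fold change above 2; 1269 (8.51%) were up and 2571 (17.2%) down in PyMT with TMM scaling. With library size alone as the scaling, 2050 were up and 2002 down, and the median of all genes stood at 0.26 instead of -0.03 on the log2 scale. Markers of epithelium and fat moved with genotype. The summed level of 18 other epithelial genes ran from 2384 to 3949 CPM in PyMT and from 330 to 1797 CPM in FVB, and that of 8 adipocyte markers from 111 to 1772 CPM in PyMT and from 4905 to 11850 CPM in FVB. In 7 libraries, 3 PyMT and 4 FVB, markers of skeletal muscle summed to more than 1000 CPM. Of 3799 mid-level genes, 4.40% were at a count of 0 in FVB week 10 replicate 3 and 2.87% in PyMT week 8 replicate 2. These 2 are the libraries with many genes at 0 named below. FVB week 8 replicate 1 (1.92%), PyMT week 6 replicate 2 (1.66%) and PyMT week 10 replicate 2 (1.26%) came next and were not left out as a group. The remaining samples had at most 0.42%.

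Between PyMT and FVB glands, 6 of the 9 genes were called higher in PyMT in the fit over all weeks and 0 lower. Of all genes tested 8.51% were called up and 17.2% down in that fit. Epcam rose 4.11-fold, Krt8 3.29-fold, Cd24a 2.97-fold, Krt18 2.82-fold, Prom1 2.31-fold and Muc1 2.10-fold in the fit of all 24 samples with week as a factor. Krt7, Krt19 and Aldh1a3 were not called, with log2 fold changes of -0.01, -0.59 and -0.46. The median over the 9 genes was 1.21 on the log2 scale, beside -0.03 over all genes tested. By week, 4 genes were called at week 6 (Krt8, Krt18, Epcam and Cd24a; of all genes 10.0% were called, 3.58% up and 6.46% down), 3 at week 8 (Epcam, Cd24a and Prom1; 9.95%, 3.57% up and 6.37% down), 4 at week 10 (Krt8, Krt18, Epcam and Cd24a; 13.9%, 4.83% up and 9.09% down) and 3 at week 12 (Krt18, Epcam and Cd24a; 20.7%, 7.75% up and 13.0% down), all up. In whole glands, fewer or more cells of a type and less or more RNA per cell cannot be told apart. For 5 of the 9 genes at week 6, for 6 at week 8 and for 4 at each later week, all 3 PyMT samples lay above all 3 FVB samples. Of all genes tested 16.2%, 18.4%, 18.9% and 21.5% were separated this way at the successive weeks. Krt18, Epcam and Cd24a lay higher in all 12 PyMT samples than in any of the 12 FVB samples, beside 4.67% of all genes.

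**Figure D1:**
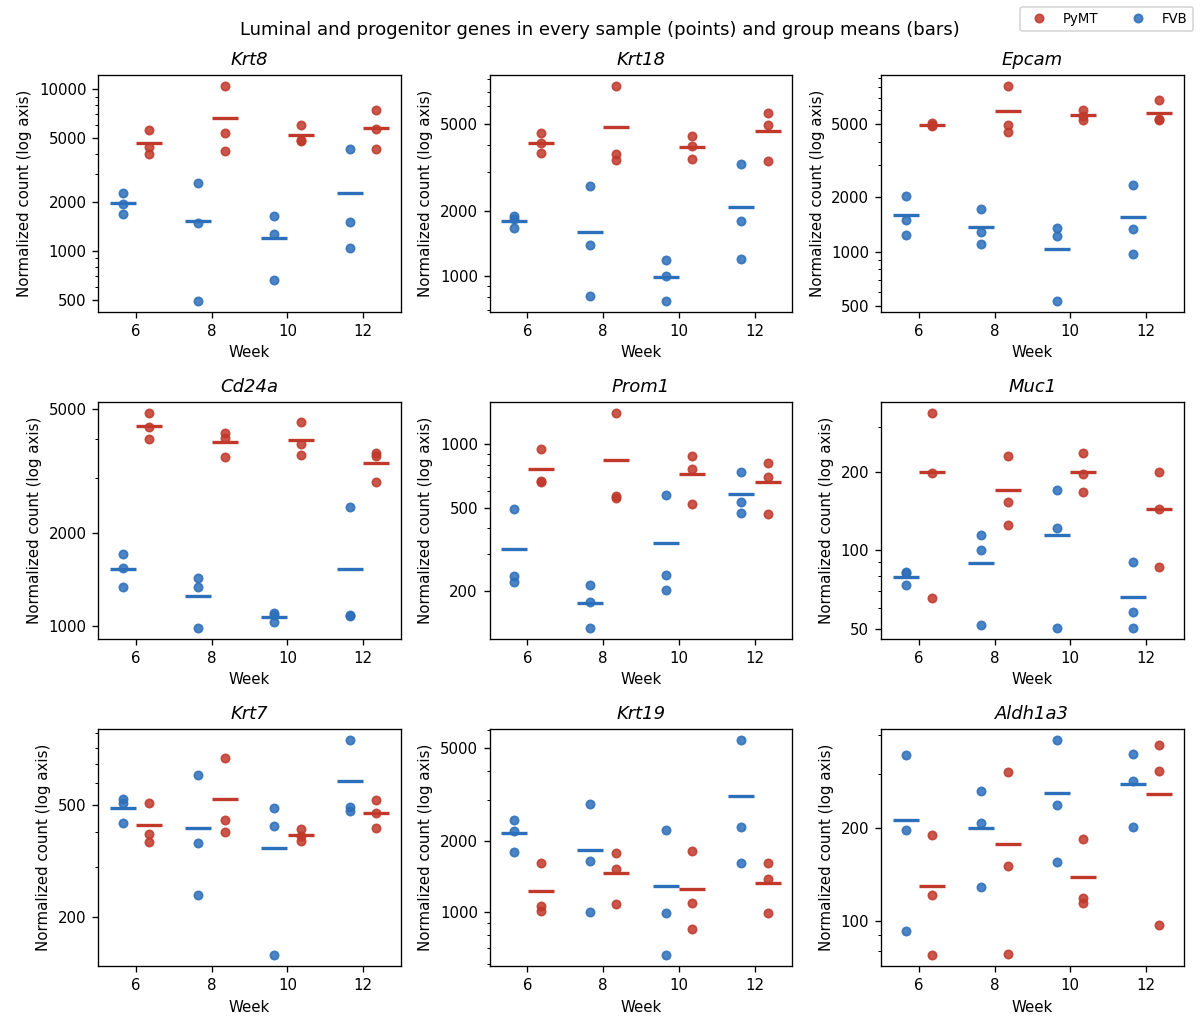
Normalized counts (log axis) of the 9 genes by week in every sample, with points for samples and bars for the mean of 3, PyMT in red and FVB in blue. Epcam, Cd24a and Krt18 separate at every week, whereas Krt7, Krt19 and Aldh1a3 overlap at weeks 8, 10 and 12.

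Values are given below as normalized counts, the counts over DESeq2's size factors, in the order of the replicate numbers, and means carry the SD over 3 samples. Krt8, the principal type II keratin of simple epithelia, had 3969, 4373 and 5583 in the PyMT samples and 1685, 2293 and 1939 in the FVB samples at week 6. At week 8 Krt8 had 4143, 10531 and 5342 in the PyMT samples and 489, 1489 and 2633 in the FVB samples. The PyMT samples were above the FVB samples at both weeks, and at week 8 the values spread widely within both. Krt8 at week 10 had 4764, 6017 and 4875 in the PyMT samples and 1281, 1649 and 657 in the FVB samples. Week 12 gave 5691, 4265 and 7386 in the PyMT samples and 1044, 4263 and 1513 in the FVB samples, where the highest FVB sample reached the lowest PyMT sample almost exactly. The log2 fold change of Krt8 was 1.23 ± 0.22 (SE, edgeR adjusted p = 0.011) at week 6 and 2.17 ± 0.34 (SE, edgeR adjusted p = 0.0046) at week 10, which were calls. It was 2.12 ± 0.60 (SE, edgeR adjusted p = 0.06) at week 8 and 1.39 ± 0.49 (SE, edgeR adjusted p = 0.068) at week 12, which were not. The call at week 6 was lost in the fit of all 24 samples (edgeR adjusted p = 0.11). Over all weeks it was 1.72 ± 0.26 (SE, edgeR adjusted p = 5.2e-06). Leaving out FVB week 8 replicate 3 brought Krt8 and Krt18 over the threshold at week 8, for 5 calls instead of 3. Leaving out FVB week 12 replicate 2 made Krt8 a call at week 12, at 2.19 (edgeR adjusted p = 0.0016).

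Krt18, the type I partner of Krt8, had 4071, 3686 and 4510.1 in the PyMT samples and 1658, 1823 and 1884 in the FVB samples at week 6. At week 8 Krt18 stood at 3619, 7472 and 3418 in the PyMT samples and 814, 1391 and 2591 in the FVB samples. The sample with the most Krt8 at that week, PyMT replicate 2, also had the most Krt18. Krt18 at week 10 had 3431, 4400.4 and 3958 in the PyMT samples and 1191, 1005 and 769.9 in the FVB samples. For week 12 the values of Krt18 were 4951, 3388 and 5575 in the PyMT samples and 1197, 3263 and 1786 in the FVB samples. PyMT was above FVB in every pairing of samples over the 4 weeks, with a range of 3388 to 7472 (median 4014) in PyMT and 769.9 to 3263 (median 1525) in FVB. The log2 fold change was 1.19 ± 0.19 (SE, edgeR adjusted p = 0.0064) at week 6, 2.04 ± 0.23 (SE, edgeR adjusted p = 0.0011) at week 10 and 1.20 ± 0.37 (SE, edgeR adjusted p = 0.041) at week 12, and 1.60 ± 0.46 (SE, edgeR adjusted p = 0.065) at week 8, which was not a call. Over all weeks it was 1.49 ± 0.19 (SE, edgeR adjusted p = 4.8e-07). Krt8 and Krt18 have near copies elsewhere in mm9, 97.9% identical over 1734 bases and 90.5% over 1385 bases, so that reads shared with these copies make their levels less certain, and the gene annotated at the Krt8 copy held 5 counts in all samples together.

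Krt19, a type I keratin of ductal epithelia that has no tail domain, had 1063, 1009.5 and 1618 in the PyMT samples and 2218, 2471 and 1799.9 in the FVB samples at week 6. At week 8 Krt19 had 1077, 1517 and 1789.8 in the PyMT samples and 995, 1644 and 2886 in the FVB samples. All PyMT samples were below all FVB samples at week 6, as for 20.4% of all genes tested, and the groups overlapped at week 8. Krt19 at week 10 had 1095, 1827 and 842 in the PyMT samples and 989.7, 2232 and 651 in the FVB samples. Week 12 values of Krt19 were 1385, 993 and 1625 in the PyMT samples and 1624, 5423 and 2314 in the FVB samples. The groups overlapped at these weeks too, and FVB week 12 replicate 2 was the highest of all 24 samples. The log2 fold change was -0.82 ± 0.25 (SE, edgeR adjusted p = 0.071) at week 6, -0.32 ± 0.38 (SE, edgeR adjusted p = 0.64) at week 8, -0.00 ± 0.46 (SE, edgeR adjusted p = 0.9999) at week 10 and -1.18 ± 0.42 (SE, edgeR adjusted p = 0.072) at week 12. Over all weeks it was -0.59 ± 0.23 (SE, edgeR adjusted p = 0.039), under the 2-fold limit. Without the week 12 libraries of replicate 2 of both genotypes, a pair left out after the data were seen, the value over all weeks was -0.38 (edgeR adjusted p = 0.14). At week 12 Krt19 was -0.55 (edgeR adjusted p = 0.14) without FVB replicate 2 and -1.49 (edgeR adjusted p = 0.020) without FVB replicate 1. It was also a call there with DESeq2, with edgeR's likelihood ratio test and without a filter on low counts, and not in the other 10 alternatives. At week 6 it was a call in 1 fit that left out a library, PyMT replicate 3 (-1.03, edgeR adjusted p = 0.048).

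Krt7, a type II keratin of ductal and glandular epithelia, ran from 369 to 738 (median 411) in PyMT and from 146 to 852 (median 482) in FVB. Its group means were 423 ± 73.6 against 488 ± 48.9 at week 6, 527 ± 184 against 415 ± 205 at week 8, 389.7 ± 19.1 against 351 ± 181 at week 10 and 467 ± 53.5 against 606 ± 213 at week 12 (PyMT against FVB). The groups overlapped at every week. The log2 fold change of Krt7 was -0.01 ± 0.18 (SE, edgeR adjusted p = 0.96) over all weeks and lay between -0.33 and 0.35 at single weeks. Its sign was positive, at 0.24, with library size alone as the scaling. The lowest value in FVB came from week 10 replicate 3, which also had the lowest Krt18, Krt19 and Epcam of the FVB samples.

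Epcam, the adhesion molecule, had 4965, 5092 and 4900.4 in the PyMT samples and 1233, 2023 and 1489.8 in the FVB samples at week 6. At week 8 Epcam had 4975, 8175 and 4521 in the PyMT samples and 1104, 1289.8 and 1709 in the FVB samples. The PyMT samples were far above the FVB samples at both weeks. Epcam at week 10 had 5279.6, 6002 and 5538 in the PyMT samples and 1352, 1226 and 535 in the FVB samples. Week 12 values of Epcam were 5353, 5280.2 and 6777 in the PyMT samples and 969, 2318 and 1337 in the FVB samples. Over all weeks PyMT ran from 4521 to 8175 (median 5279.9) and FVB from 535 to 2318 (median 1314), with no overlap. Epcam was called at each week, with log2 fold changes of 1.65 ± 0.23 (SE, edgeR adjusted p = 0.0039), 2.11 ± 0.29 (SE, edgeR adjusted p = 0.007), 2.48 ± 0.35 (SE, edgeR adjusted p = 0.0031) and 1.96 ± 0.32 (SE, edgeR adjusted p = 0.0033) at weeks 6, 8, 10 and 12. Over all weeks it was 2.04 ± 0.17 (SE, edgeR adjusted p = 4.1e-10), the largest of the 9 genes, and it remained a call with each single library left out.

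Cd24a had 4389.8, 3993 and 4868 in the PyMT samples and 1337, 1708 and 1538 in the FVB samples at week 6. At week 8 Cd24a had 4041, 3503 and 4183 in the PyMT samples and 983, 1336 and 1423 in the FVB samples. PyMT levels spread little, from 2921 to 4868 (median 3927) over 12 samples, and FVB ran from 983 to 2415 (median 1218). Cd24a at week 10 had 4558, 3556 and 3861 in the PyMT samples and 1085, 1100.2 and 1029.7 in the FVB samples. Week 12 values of Cd24a were 2921, 3604 and 3541 in the PyMT samples and 1079, 2415 and 1083 in the FVB samples. The highest FVB value was again that of week 12 replicate 2. Cd24a was called at each week, with log2 fold changes of 1.53 ± 0.20 (SE, edgeR adjusted p = 0.0032), 1.66 ± 0.22 (SE, edgeR adjusted p = 0.0066), 1.95 ± 0.19 (SE, edgeR adjusted p = 0.00068) and 1.19 ± 0.33 (SE, edgeR adjusted p = 0.029) at weeks 6, 8, 10 and 12. Over all weeks Cd24a stood at 1.57 ± 0.13 (SE, edgeR adjusted p = 5.1e-10), also a call. At week 12 between 1 and 4 of the 9 genes were called when 1 library was left out. Epcam was a call each time. Krt18 and Cd24a were calls without FVB replicate 2 and lost the call without any of the other 5 libraries, at 0.93 to 1.38 for Krt18 and 0.99 to 1.29 for Cd24a. Cd24a has a near copy on chromosome 14, 96.5% identical over 1329 of 1813 bases, where the annotated gene Hs6st3 held 108 counts in total.

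Prom1 had 662, 953 and 667 in the PyMT samples and 495, 237 and 221 in the FVB samples at week 6. At week 8 Prom1 had 571, 1412 and 555 in the PyMT samples and 134, 215 and 177 in the FVB samples. The PyMT samples were above the FVB samples at both weeks, by the smallest margin for FVB week 6 replicate 1. Prom1 at week 10 had 878, 765 and 520.3 in the PyMT samples and 203, 239 and 576 in the FVB samples. Week 12 values of Prom1 were 466, 698 and 816 in the PyMT samples and 471, 739.8 and 530.3 in the FVB samples. The groups overlapped at weeks 10 and 12, where FVB values reached the PyMT range. The log2 fold change was 1.25 ± 0.35 (SE, edgeR adjusted p = 0.053) at week 6, 2.26 ± 0.40 (SE, edgeR adjusted p = 0.014) at week 8, 1.15 ± 0.41 (SE, edgeR adjusted p = 0.1) at week 10 and 0.24 ± 0.26 (SE, edgeR adjusted p = 0.54) at week 12, of which week 8 was a call, and 1.21 ± 0.25 (SE, edgeR adjusted p = 0.00025) over all weeks. Without FVB replicate 1 Prom1 was a call at week 6 (1.75, edgeR adjusted p = 0.0053), and without FVB replicate 3 at week 10 (1.75, edgeR adjusted p = 0.0033). It was a call in 8 of 14 alternatives at week 6 and in 5 of 14 at week 10, DESeq2, voom, library size alone and the fit of 24 samples among both. The 4 FVB libraries over the muscle limit had Prom1 at 495 and 237 (week 6), 576 (week 10) and 471 (week 12). FVB samples without muscle had at most 239 at weeks 6 to 10. At week 12 they had 739.8 and 530.3, above the 471 of the library with muscle. The part of muscle in these levels was not tested. Without all 7 libraries over the limit, the log2 fold change over all weeks was 1.46 (edgeR adjusted p = 0.00057). A gene model on the other strand overlaps Prom1, and their reads cannot be told apart where the counting did not use strand.

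Muc1, a large apical glycoprotein, was low in both genotypes, from 65.7 to 339 (median 182) in PyMT and from 50.1 to 171 (median 82.1) in FVB. Its widest spread was at week 6, with 199, 65.7 and 339 in the PyMT samples and 82.3, 73.3 and 81.9 in the FVB samples. The log2 fold change of Muc1 was 1.07 ± 0.25 (SE, edgeR adjusted p = 0.00086) over all weeks, just over 2-fold, and between 0.86 and 1.36 at single weeks, with no call. Without PyMT replicate 2 it was a call at week 6 (1.82, edgeR adjusted p = 0.023), and without PyMT replicate 1 at week 12 (1.44, edgeR adjusted p = 0.042). Over all weeks it was 0.94 without PyMT week 6 replicate 3, under the 2-fold limit, and 0.99 without the week 12 libraries of replicate 2. Aldh1a3 ran from 77.2 to 373 (median 136) in PyMT and from 92.6 to 387 (median 223) in FVB, and the groups overlapped at every week. Its log2 fold change was -0.46 ± 0.26 (SE, edgeR adjusted p = 0.15) over all weeks and between -0.85 and -0.06 at single weeks. Within PyMT at week 12 it varied from 97.2 to 373, so that the spread among mice of 1 group was wider than the difference between the genotypes.

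**Figure D2:**
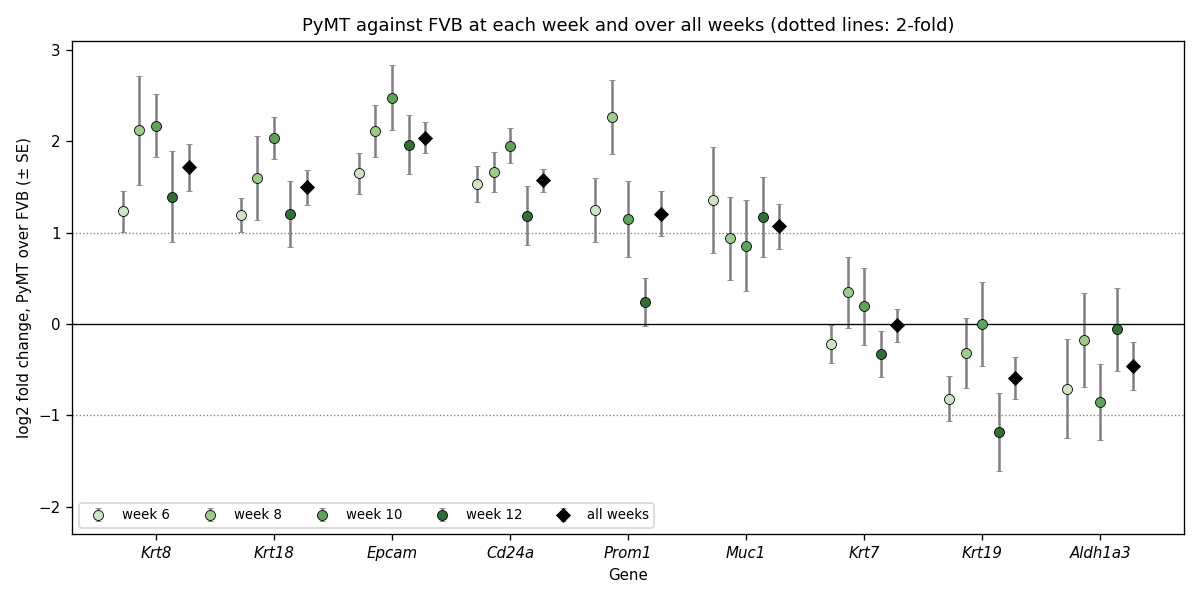
Log2 fold change of PyMT over FVB (points, bars ± SE) for each gene at weeks 6, 8, 10 and 12 and over all weeks (black diamonds), with dotted lines at 2-fold. Krt8, Krt18, Epcam and Cd24a lie above the upper line at each week, and Krt7, Krt19 and Aldh1a3 lie around or below 0.

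Levels were set against each other per kb of exonic length (normalized counts per kb). This length takes in every annotated exon of a gene, 7049 bases for Krt7 and 1400 to 1855 for Krt8, Krt18 and Krt19. The place of Krt7 in both orders below, and its gap to Epcam in FVB, depend on that length. In PyMT the medians ran in the order Krt18 (2867), Krt8 (2830.2), Epcam (2588), Cd24a (2166), Krt19 (668), Prom1 (151), Muc1 (77.6), Krt7 (58.3) and Aldh1a3 (29.5). The ranges of neighbours in this order overlapped except between Cd24a and Krt19 and between Krt19 and Prom1. In FVB the order was Krt18 (1089), Krt19 (1083), Krt8 (876), Cd24a (672), Epcam (644), Krt7 (68.3), Prom1 (52.7), Aldh1a3 (48.3) and Muc1 (35), and the ranges of neighbours overlapped except between Epcam and Krt7. Krt19 stood beside Krt18 in FVB and far below it in PyMT.

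The balance of keratins within a sample differed between the genotypes. The ratio of Krt19 to Krt18 in normalized counts ran from 0.203 to 0.524 (median 0.292) in the 12 PyMT samples and from 0.831 to 2.22 (median 1.26) in the 12 FVB samples. The ratio of Krt7 to Krt8 ran from 0.0646 to 0.116 (median 0.0826) in PyMT and from 0.188 to 0.487 (median 0.262) in FVB. Neither ratio overlapped between the genotypes at any week. The share of all genes whose ratio to Krt18 or Krt8 separated this way was not counted. Krt18 alone lay higher in all 12 PyMT samples than in any FVB sample. On the scale of 18 other epithelial genes, given below, 77.8% of all tested genes were called down in PyMT. A fall relative to Krt18 or Krt8 was therefore not shown to be particular to Krt19 and Krt7. The mean ratio was 4.11-fold and 3.45-fold lower in PyMT for the 2 pairs on the log scale. Without the 7 libraries with muscle markers these were 3.91-fold and 3.68-fold, and without the 2 libraries that had many mid-level genes at 0 they were 4.11-fold and 3.47-fold. The 2 pairs were chosen after the values had been seen, and the ratios are given as a description without a test. The ratio needs no scaling between samples.

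**Figure D3:**
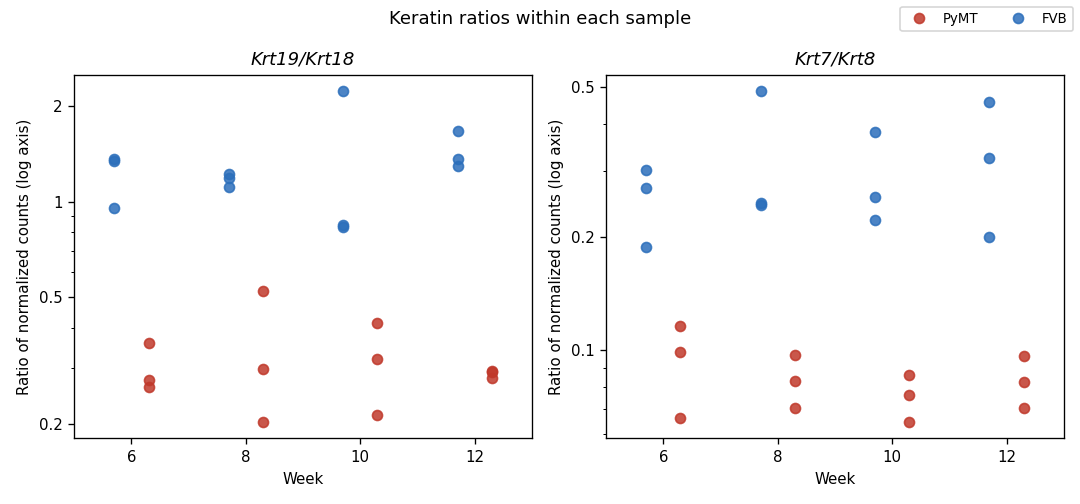
Ratio of Krt19 to Krt18 (left) and of Krt7 to Krt8 (right) in each sample by week, as ratios of normalized counts on a log axis, with points for samples, PyMT in red and FVB in blue. All PyMT points lie below all FVB points, at most 0.524 against at least 0.831 for Krt19/Krt18 and at most 0.116 against at least 0.188 for Krt7/Krt8.

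Since the summed level of other epithelial genes differed between the genotypes, the 9 genes were also tested relative to 18 other epithelial genes (adhesion, tight junction and epithelial splicing genes), whose mean log count served as the scaling. On this scale most genes were lower in PyMT, with 79.1% of all tested genes called, 189 (1.27%) up and 11609 (77.8%) down, and a median log2 fold change of -1.69. Of the 9 genes, 3 fell: Krt7 by 1.51, Krt19 by 2.08 and Aldh1a3 by 2.26 on the log2 scale (SE 0.18, 0.22 and 0.39; edgeR adjusted p = 4.3e-08, 5.4e-09 and 7.6e-06). The median of all genes lay between these falls. The other 6 were not called and lay above that median: Epcam at 0.52 ± 0.16 (SE, edgeR adjusted p = 0.0053), Krt8 at 0.26 ± 0.20 (SE, edgeR adjusted p = 0.21), Krt18 at -0.05 ± 0.19 (SE, edgeR adjusted p = 0.81), Cd24a at -0.03 ± 0.20 (SE, edgeR adjusted p = 0.9), Prom1 at -0.57 ± 0.37 (SE, edgeR adjusted p = 0.14) and Muc1 at -0.62 ± 0.32 (SE, edgeR adjusted p = 0.073). Epcam passed the adjusted p and stayed under 2-fold. The same 3 genes were called with Krt8 and Krt18 or with Cdh1 as the reference, without the muscle libraries and with each single library left out; with Epcam as the reference Muc1 (-1.10) and Prom1 (-1.04) were called as well. Without the muscle libraries Prom1 stood at 0.021 in place of -0.57.

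**Figure D4:**
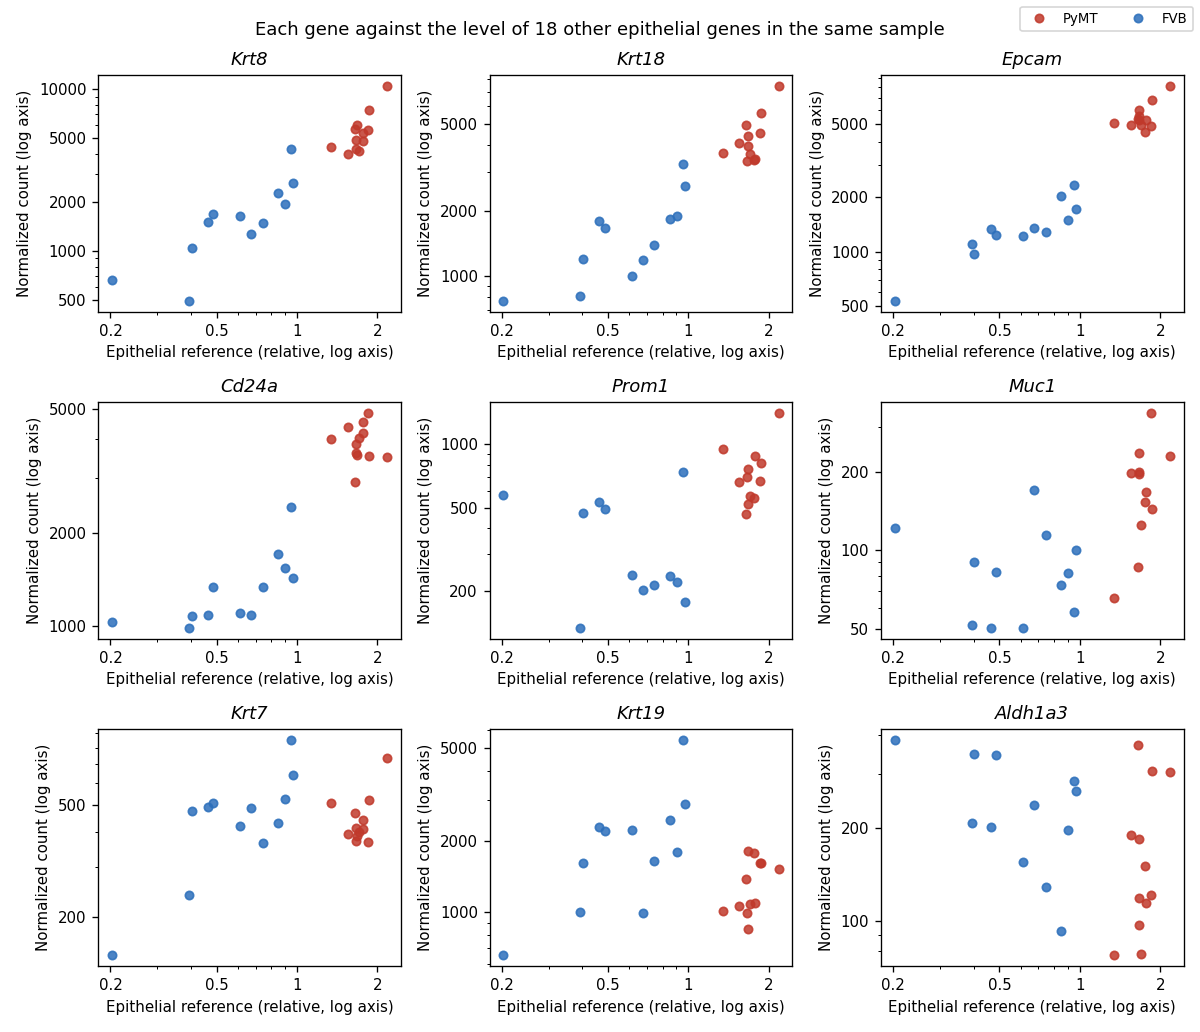
Normalized count of each gene against the relative level of 18 other epithelial genes in the same sample, both on log axes, with a point per sample, PyMT in red and FVB in blue. Krt8, Krt18, Epcam and Cd24a rise from the FVB to the PyMT samples along with the reference, whereas Krt7, Krt19 and Aldh1a3 in PyMT stay at the height of the FVB samples.

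No gene of the set was called in a comparison between weeks. Weeks 10 and 12 were set against weeks 6 and 8 within PyMT, within FVB and as the change of their difference, and week 12 against week 6 in the same 3 ways, in a fit of 8 groups. Over all genes 0 were called in 5 of these 6 comparisons (0%) and 2 in FVB at weeks 10 and 12 against 6 and 8 (0.0134%), with 625 to 1004 of 14918 genes at an unadjusted p under 0.05. DESeq2 called 9 to 97 genes, edgeR's likelihood ratio test 9 to 82 and limma voom with sample weights 10 to 58, none of them in the set. In PyMT between the earlier and later weeks the log2 changes of the 9 genes lay between -0.20 (Prom1) and 0.33 (Aldh1a3), and their smallest unadjusted p was 0.32. The Cd24a level in PyMT was 4417 ± 438 at week 6 and 3355 ± 378 at week 12, a log2 change of -0.39 ± 0.24 (SE, edgeR adjusted p = 0.85). Prom1 had the smallest unadjusted p of the 9 genes over these comparisons. In FVB its log2 change to the later weeks was 0.88 ± 0.29 (SE, unadjusted p = 0.0062, edgeR adjusted p = 0.55), and the change of the difference between the genotypes was -1.08 ± 0.40 (SE, unadjusted p = 0.014, edgeR adjusted p = 0.76). These changes in Prom1 did not pass the correction, and with the 2 libraries with many genes at 0 left out they were 0.58 and -0.51.

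Other epithelial genes showed how the set stood among its lineage over all weeks. Of the 18 epithelial reference genes 15 rose and 0 fell (median log2 fold change 1.57), from the protease gene St14 (1.81 ± 0.16 SE, edgeR adjusted p = 1.2e-09) to the desmosome gene Dsp, which was not called (-0.16 ± 0.26 SE, edgeR adjusted p = 0.65). Of 9 luminal progenitor genes 5 rose and 0 fell (median 1.19); the alveolar factor Elf5 rose 4.90-fold (2.29 ± 0.17 SE, edgeR adjusted p = 5.7e-11), and Lypd3 did not pass (1.00 ± 0.63 SE, edgeR adjusted p = 0.19). Of 9 genes of mature hormone-sensing luminal cells 8 fell and 0 rose (median -3.24). Esr1, the estrogen receptor, fell by 2.45 ± 0.14 (SE, edgeR adjusted p = 2.6e-12), and the luminal factor Gata3 was the one not called, at 0.77 ± 0.16 (SE, edgeR adjusted p = 0.00028).

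**Figure D5:**
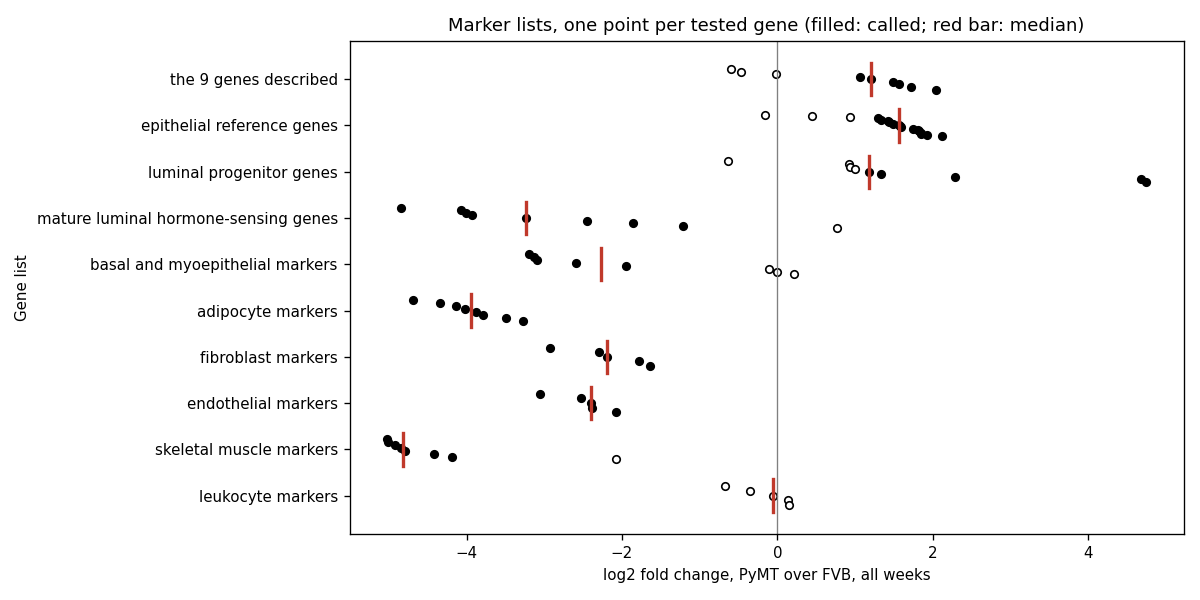
Log2 fold change of PyMT over FVB over all weeks for the 9 genes described and for lists of marker genes, with a point for each tested gene (filled where called) and a red bar at the median of the list. The 9 genes split into 6 filled points above 1 and 3 open points at or below 0, the epithelial reference genes lie mostly above 1, and the hormone-sensing, adipocyte, fibroblast and endothelial lists lie mostly below -1.

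Relatives of the surface genes were measured as well. Of 7 paralogs 5 were tested, 3 rose and 0 fell. The mucins rose: Muc4 (1.60 ± 0.45 SE, edgeR adjusted p = 0.0046), Muc15 (1.87 ± 0.28 SE, edgeR adjusted p = 4.8e-06) and Muc20 (2.18 ± 0.49 SE, edgeR adjusted p = 0.00064). Prom2, the Prom1 paralog, stood at -0.77 ± 0.28 (SE, edgeR adjusted p = 0.025), under 2-fold. The paralog pairs were not tested against each other. Among 5 tested relatives of Aldh1a3, Aldh1a1, Aldh1a7 and Aldh1l1 fell (log2 fold changes of -3.46, -3.63 and -3.33), the mitochondrial folate enzyme Aldh1l2 rose (1.69 ± 0.42 SE, edgeR adjusted p = 0.0016), and Aldh1a2 stood at 0.01 ± 0.64 (SE, edgeR adjusted p = 0.99). Of 11 other keratins 4 were tested, and Krt15 fell by 2.68 ± 0.61 (SE, edgeR adjusted p = 0.00069).

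Markers of other cell types moved with genotype beside the 9 genes. Of 8 basal and myoepithelial markers 5 fell (median -2.27); their sum ran from 169 to 795 CPM in PyMT and from 357 to 1843 CPM in FVB. The smooth-muscle myosin Myh11 was 8.55-fold lower, and the basal keratin Krt5, 1 of 3 basal markers not called, stood at 0.00 (edgeR adjusted p = 0.9999). The fall was not shared by the whole list. Median CPM in PyMT and FVB was close for Krt5 (54.7 and 58.7), Krt14 (65.7 and 65.6) and Trp63 (45.2 and 43.4). It was lower in PyMT for Acta2 (64.0 and 347), Myh11 (55.7 and 309) and Oxtr (20.2 and 179). Cnn1 (3.44 and 30.7) and Krt17 (9.36 and 25.2) were lower too. All 8 adipocyte markers fell (median -3.95), as did 7 of 8 skeletal muscle markers (median -4.82, sum from 10.0 to 4222 CPM in PyMT and from 13.4 to 47943 CPM in FVB), 5 of 5 fibroblast markers (median -2.19, sum from 2010 to 4651 CPM in PyMT and from 3984 to 17055 CPM in FVB) and 5 of 5 endothelial markers (median -2.40, sum from 86.2 to 265 CPM in PyMT and from 444 to 974 CPM in FVB). The skeletal muscle sum was 14868 to 47943 CPM in 4 FVB libraries and at most 626 CPM in the other FVB libraries. Its median was 127 CPM in FVB and 53.5 CPM in PyMT. By week, 0 of the 8 muscle markers were called at weeks 6 and 10, 3 at week 8 and 6 at week 12. Of 9 leukocyte markers 5 were tested and 0 were called by edgeR's quasi-likelihood test, 1 of them, Csf1r, having an adjusted p of 0.0015 at less than 2-fold; their sum ran from 145 to 306 CPM in PyMT and from 131 to 358 CPM in FVB, and the lymphocyte markers Cd3e, Cd79a and Ms4a1 were at a count of 0 in 11, 15 and 18 of 24 samples. The part of these cell types in the levels of the 9 genes was not tested beyond the scaling to epithelial genes.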

How the data were processed

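RNA from snap-frozen mammary glands or tumors of 24 mice was depleted of ribosomal RNA and sequenced from directional libraries. The authors removed adapters, mapped the reads onto mm9 with GSNAP v2012-07-02, counted them by gene with HTSeq v0.5.3p3 and deposited raw counts, without normalization. The annotation and the strand setting of the counting are not given in the sources used here. Gene symbols and mm9 coordinates come from GENCODE M1, which has a model for 37205 of the 37991 genes. The members and gene lists were chosen with earlier results of these data known.

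Groups were genotype and week as the labels give them. The labels give 3 replicates per group, and the study's methods give 3 mice per group, so p-values measure the spread between mice. Replicate numbers were not used as pairs in the main fits, and the labels do not say whether they pair the samples. Over 12 pairs of same-numbered samples, deviations from the group means correlated between -0.03 and 0.18, and 4 pairs exceeded 0.1. The highest values came from replicate 3 at weeks 6, 8 and 10 (0.14, 0.18 and 0.16). Samples of unlike number were not compared, so these values cannot decide whether the numbers pair the samples. No 2 samples of the same group were copies, with a chi-square per gene between replicates of 20.4 to 238. Samples of different groups were not compared in this way.

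Genes reaching 1 CPM in 12 or more samples were tested with edgeR 4.0.16 in R 4.3.3 (quasi-likelihood, TMM, Benjamini-Hochberg over 14918 genes). A call needed a fold change over 2 with an adjusted p below 0.05. Each week used its own 6 samples. All-week tests used 24 samples with week as a factor, and comparisons between weeks used 8 groups. Standard errors are the log2 fold change over the square root of F. All 9 members are named, with the tested genes of smallest and largest p of each list, the paralogs and the ALDH1 genes. The other basal markers were named after their values had been seen. Some listed genes are not reported here. Alternatives were DESeq2 1.42.0, edgeR's likelihood ratio test, limma 3.58.1 voom, RLE or library-size scaling, no filter, 1 fit of 24 samples, a replicate block, other references and each library left out; leaving out the muscle libraries, the week 12 libraries of replicate 2 and the keratin ratios were added after seeing the data. Fits were tested on simulated data. Counting depth limits Muc1 most, with a lowest count of 41 in a sample. Near copies were found with BLAST 2.17.0 (at least 90% identity over 300 bases), and promoter windows are from RefSeq (GRCm38.p6). Figures used matplotlib 3.10.9.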

Additional observations from a re-analysis of the deposited data

How the results depend on the processing

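The calls over all weeks held for Krt8, Krt18, Epcam, Cd24a and Prom1 under all alternatives run, and that for Muc1 except without PyMT week 6 replicate 3 and without the week 12 libraries of replicate 2. At week 8 the count of called genes was 5 instead of 3 with DESeq2, the likelihood ratio test, voom, no filter and the fit of 24 samples, each adding Krt8 and Krt18. At week 12 it was 6 with the likelihood ratio test and 5 with voom, no filter or library size alone. Relative to Epcam alone 5 genes were called instead of 3. With 1 library left out the counts ran from 5 to 6 over all weeks, 4 to 5 at week 6, 3 to 5 at week 8, 4 to 5 at week 10, 1 to 4 at week 12, 3 to 3 relative to the epithelial genes and 0 to 0 between weeks. With the replicate block 6 genes were called over all weeks and 4, 4, 4 and 2 at weeks 6, 8, 10 and 12. At week 12 Krt18 lost its call with the block (1.31, edgeR adjusted p = 0.057). Whether the numbers pair the samples is not known.

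Changes of sign touched log2 fold changes that were not calls, including that of Prom1 relative to the epithelial genes (-0.57). With library size alone Krt7 was 0.055 at week 6 and 0.24 over all weeks, Krt19 0.23 at week 10, and Aldh1a3 0.072 at week 8 and 0.27 at week 12; up and down calls over all genes were then 779 and 654, 830 and 745, 989 and 956, and 2054 and 1527 at the 4 weeks, beside 534 and 964, 533 and 951, 720 and 1356, and 1156 and 1936. With voom Krt7 was -0.0432 at week 8 and -0.025 at week 10, and relative to the epithelial genes Krt18 was 0.0092, Cd24a 0.30 and Prom1 0.045. Krt19 at week 10 was 0.00042 with the likelihood ratio test, 0.019 without a filter and 0.13 with the block. Krt7 over all weeks was 0.010 without a filter and 0.10 without the week 12 libraries of replicate 2. Relative to Epcam, Krt8 was -0.29; relative to Cdh1, Krt18 was 0.10 and Cd24a 0.11; without the muscle libraries Krt18 was 0.062, Cd24a 0.14 and Prom1 0.021; without the week 12 libraries of replicate 2 Krt18 was 0.010; without the libraries with many genes at 0 Cd24a was 0.17. With 1 library left out, Krt7 ran from -0.10 to 0.073 over all weeks and -0.17 to 0.51 at week 10, Krt19 from -0.61 to 0.19 (week 8) and -0.35 to 0.65 (week 10), Aldh1a3 from -0.76 to 0.17 (week 8) and -0.40 to 0.33 (week 12), and relative to the epithelial genes Krt18 from -0.12 to 0.055 and Cd24a from -0.082 to 0.14. The cause of these changes was not tested. The depth of 6969375 counts or more left all 9 genes measured in each sample.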

Other observations

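Keratins of stratified epithelium, outside the 9 genes and named after their values had been seen, were high in 1 PyMT sample. PyMT week 12 replicate 2 held 2139 normalized counts of Krt6a, 1886 of Krt6b, 984 of Krt10, 938 of Krt13 and 114 of Krt4. In the other 11 PyMT samples Krt6a did not exceed 3.53. FVB week 12 replicate 2 held 419.7 of Krt6a, and FVB week 6 replicate 1 held 715 of Krt10 and 64.9 of Krt6a. These are keratins of skin and other layered epithelia, and their source was not tested. PyMT week 12 replicate 2 had 4265 of Krt8 and 993 of Krt19, within the range of the other PyMT samples, and with 3388 the lowest Krt18 of the PyMT samples, while FVB week 12 replicate 2 had the highest Krt8, Krt18, Krt19, Epcam, Cd24a and Prom1 of the FVB samples.

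The tested genes whose pattern over the 24 samples was most like a member differed between the members. For Epcam they were Cmas, Papss1 and Aim1 (Pearson's r of log2 normalized counts of 0.98 each), for Krt8 Marveld3, Tpd52 and St14 (0.96, 0.95 and 0.94), for Krt18 St14, Tead2 and Marveld3 (0.95, 0.94 and 0.94), and for Prom1 the milk protein gene Lalba, Itga8 and Chl1 (0.87, 0.85 and 0.85). The best matches of Krt7 (Zfp286, 0.83), Krt19 (Rai14, 0.78), Muc1 (Akr1b10, 0.81) and Aldh1a3 (Dhh, 0.78) were lower, and that of Cd24a was Ripply1 (0.96). These values rest on both genotypes together and on libraries shared by all genes, and they are given as a description.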
